A study of Saccharomyces cerevisiae with 7 samples.

Results

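The first hour of a meiotic time course in budding yeast was described from 1 library, taken at 1 h from a mutant titled Clb5Delta-Clb6Delta. Clb5 and Clb6 are the cyclins that activate Cdc28, the yeast Cdk1, to fire replication origins. Every open reading frame with a value at 1 h was included, 5706 of the 6141 on the array, and 5838 had a value in at least 1 of the 7 libraries of the course. Each value gives, on a log2 scale, the mRNA of a gene at 1 h relative to 0 h of the same mutant. Both were read on 2-channel arrays against a meiotic mRNA mix made up from every time point. All groups, the 0 h baseline included, carry both deletions. The 6 later libraries, titled 2, 3, 4, 5, 6 and 8 h, are given beside some values. The source name of the last library, titled 8 h, reads 6 h instead. Strain background, ploidy, medium and number of clones are not stated in what was used here, and no course of another genotype was analysed here. There is 1 array per time point and no replicate, so no test was made at 1 h, no error can be given, and the number of arrays limits the precision of every value. All libraries share the 0 h measurement, and genes named at 1 h were ranked on 1 reading each.

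Diploid budding yeast enters meiosis when nitrogen and fermentable sugar run out. The entry regulator Ime1 then joins Ume6 at the promoters of early meiotic genes and turns a repressor into an activator, so that proteins of recombination, synapsis and cohesion are made before the divisions. In the same hours of starvation, cells are known to shut down ribosome production and to take up and break down poorer nitrogen sources, which the GATA factors Gln3 and Gat1 switch on.

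At 1 h, 682 open reading frames stood at log2 1 or more, that is at least 2-fold above 0 h, which is 12.0% of those measured. Another 693 stood at -1 or less, at least 2-fold below 0 h, which is 12.1%. At least 4-fold higher were 124 (2.17%), and at least 4-fold lower were 170 (2.98%). The remaining 4331 (75.9%) lay within 2-fold. The library median was 0.09, with quartiles at -0.46 and 0.57 and an SD of 0.96. The upper end reached further than the lower one, with MEP2 at 6.92 (121-fold higher) and ENO1 at -4.43 (21.6-fold lower). Nearest to the thresholds, KEX1 at 1.002 and TEP1 at 1.003 lay just inside the upper one, and KAR1 at 0.9993 and RKM1 at 0.9971 just outside. At the lower one DPM1 at -1.0002 and YER158C at -1.0002 lay just inside, and TUF1 at -0.9998 and COA1 at -0.9997 just outside.

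**Figure D1:**
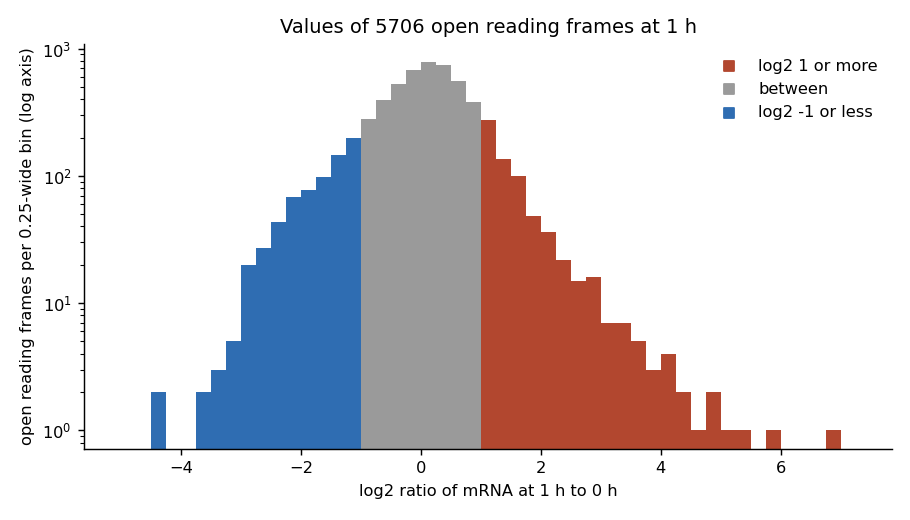
The number of open reading frames (log axis) in bins of 0.25 is plotted against the log2 ratio at 1 h to 0 h, in 1 library. The 682 values at 1 or more and the 693 at -1 or less form tails around a centre of 4331, and the upper tail ends at 6.92 and the lower at -4.43.

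Functional groups were described from 44 lists of genes, with 5 more added after values were seen. Each list's share is to be read beside that of all open reading frames, 12.0% at 1 or more and 12.1% at -1 or less. Of the 682 higher open reading frames, 242 belong to a list and 440 to none, and of the 693 lower ones 355 belong to a list and 338 to none. Cytosolic ribosomal proteins alone make up 125 of the 693 lower ones (18.0%), and 75 of the 170 that were at least 4-fold lower (44.1%). The highest list median, 2.28, was that of meiotic recombination and synapsis, and the lowest, -2.08, that of cytosolic ribosomal proteins.

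**Figure D2:**
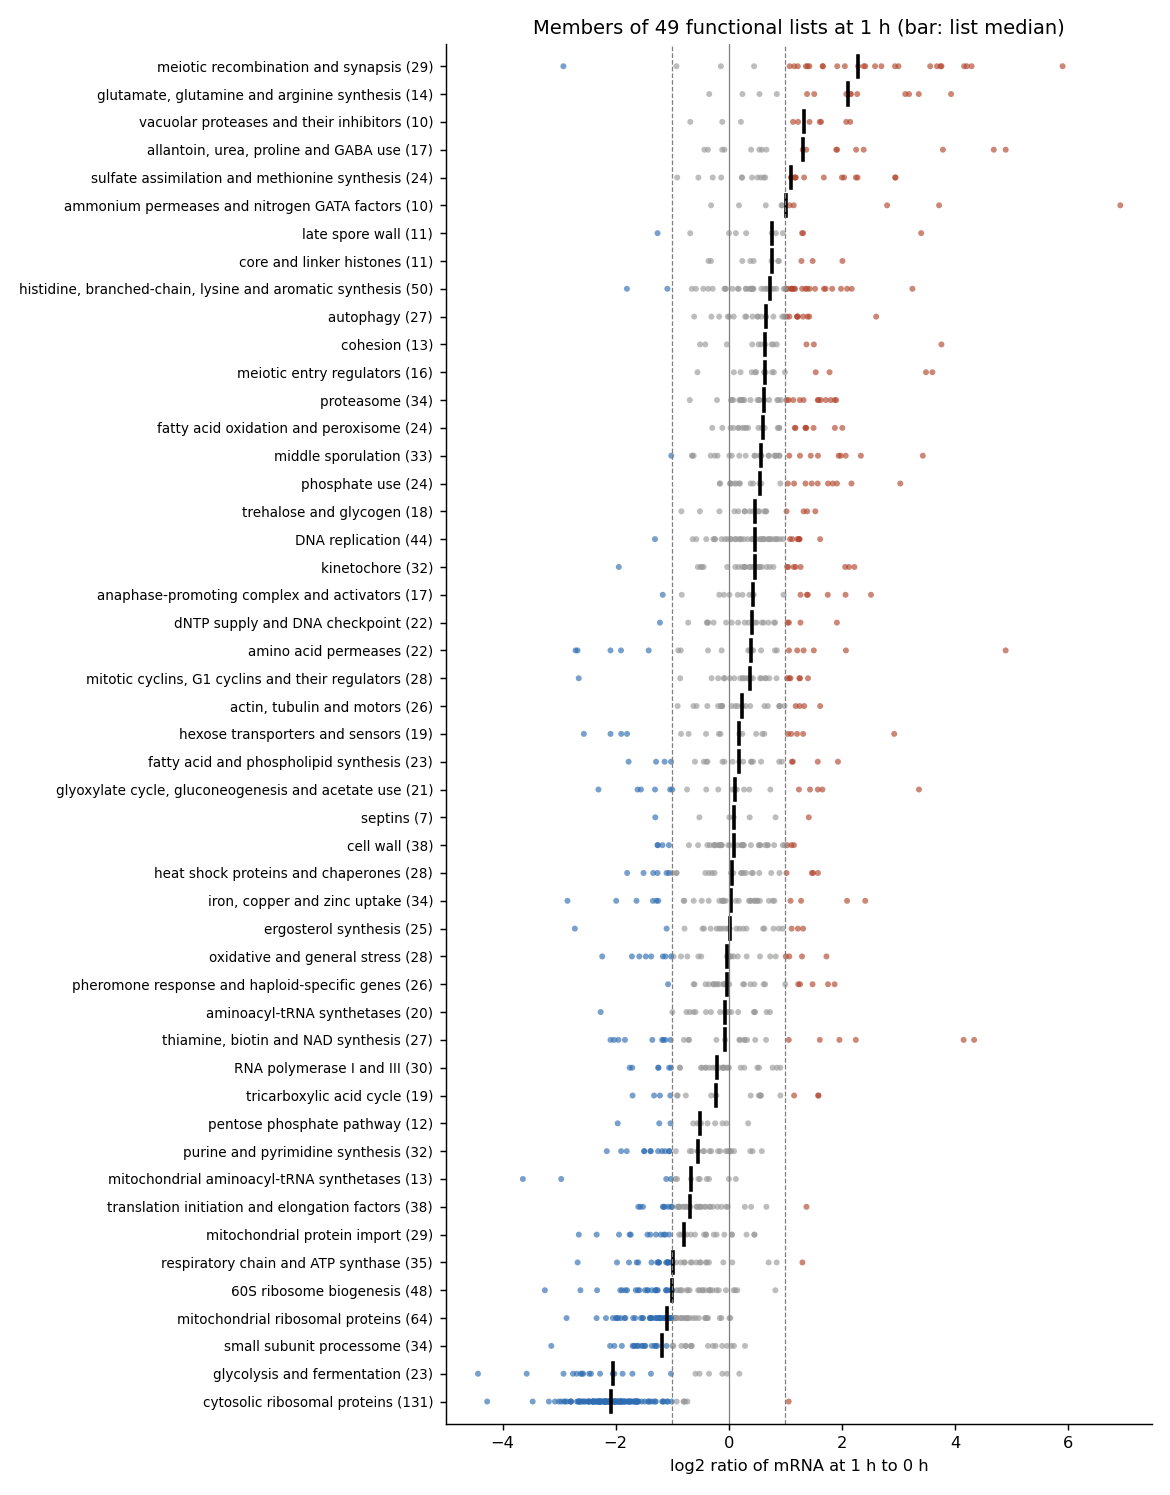
Each point is a gene of 1 of 49 lists, placed by its log2 ratio at 1 h to 0 h, with the number of measured members after the list's name and a bar at the list median. Lists run from a median of 2.28 for meiotic recombination and synapsis at the top to -2.08 for cytosolic ribosomal proteins at the bottom, and dashed lines mark log2 1 and -1.

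The deleted cyclins were read first. CLB5 stood at 1.40 and CLB6 at -0.19 at 1 h. A ratio to the same mutant at 0 h carries no level, and the stretch of each gene that its probe reads is not stated in what was used here, so these values check nothing about the deletions.

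Genes of meiotic recombination and synapsis were already far above 0 h after 1 h. Of 29 measured members 25 stood at 1 or more (86.2%, against 12.0% of all open reading frames) and 1 at -1 or less, and 16 were at least 4-fold higher. MSH4, a meiotic MutS protein that stabilises crossover intermediates, was the second highest gene of the library at 5.90 (59.6-fold). It went on to 7.37 at 2 h, 7.82 at 3 h, 8.02 at 4 h, 7.19 at 5 h and 6.85 at 6 h, with no value after that, so its 1 h value was the lowest of those measured.

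Among genes of strand exchange, DMC1, the meiotic recombinase, stood at 3.74, its partner MEI5 at 4.29 and SAE3, which acts with MEI5, at 1.39. MND1 and HOP2, whose products form a complex that helps Dmc1 pair homologous chromosomes, stood at 4.20 and 3.00.

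Genes of the chromosome axis and of break formation followed. HOP1 and RED1, axis proteins, stood at 3.68 and 2.38, their kinase MEK1 at 4.16, and REC8, the meiotic cohesin kleisin, at 3.76. Of the genes for break formation, REC114 stood at 2.93, REC102 at 2.28, REC104 at 1.91, REC107 at 1.07 and SPO11, which cuts the DNA, at 1.66, while MEI4 stood at -0.14. ZIP1, the transverse filament of the synaptonemal complex, stood at 2.58, and ZIP2 and GMC2, which help it assemble, at 2.05 and 2.41. ECM11, the partner of GMC2, stood apart at -2.93 and was also below 0 h in every later library, between -1.89 and -0.67. CST9, which codes for the synapsis protein Zip3, stood at -0.93 at 1 h but between 1.03 and 1.70 from 2 h to 6 h, with no value after that.

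The regulators that switch these genes on mostly stood nearer to 0 h than the genes themselves. IME1 stood at 0.76, IME4, which codes for the catalytic subunit of the mRNA methyltransferase, at 0.63 and UME6 at 0.21. IME2, the kinase that acts after Ime1, stood at 3.48, and SLZ1, a part of the methyltransferase complex, at 3.60. RIM4, a translational repressor of meiosis, stood at 1.78, and RIM101, of the pathway that responds to alkaline pH, at 1.53. Of 16 measured regulators 4 were at 1 or more (25.0%) and none at -1 or less, with NDT80, the activator of middle genes, lowest at -0.56. RME1, a repressor of IME1 that is known from haploid cells, had no value at 1 h.

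Genes of the middle phase mostly lay within 2-fold of 0 h at this time, but leaned up. Of 33 measured members 9 stood at 1 or more (27.3%, beside 12.0% of all open reading frames) and 26 above 0. At -1 or less was 1, PES4, at -1.02. The list median was 0.57 against 6.42 in the last library. SPO21 and MPC54, outer plaque proteins of the meiotic spindle pole, stood at 3.43 and 2.33, and ADY3, of the prospore membrane's leading edge, at 2.06. For SPO21 the next values were 2.57 at 2 h and 1.83 at 3 h before 5.20 at 6 h, so its 1 h value was above those of the next 3 libraries. The kinase SPS1 stood at -0.20 and the kinase SMK1 at 0.18. Among genes of the spore wall OSW1 stood at 3.40, while DIT1, of the dityrosine layer, stood at 0.30 and CWP1, a wall mannoprotein, at -1.26.

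Genes of cohesion and chromosome segregation included some high members. REC8 aside, PDS5 and SCC2, a cohesin regulator and the cohesin loader, stood at 1.50 and 1.37, and 3 of 13 cohesion genes, REC8 included, were at 1 or more (23.1%, beside 12.0% of all open reading frames) with none at -1 or less. MCD1, the mitotic kleisin that Rec8 replaces, stood at -0.42, which is 4.17 below REC8. In the kinetochore list, added after values were seen, 8 of 32 were at 1 or more (25.0%), led by CTF13 at 2.22, NDC80 at 2.12 and the Aurora kinase IPL1 at 2.05. SCM3, the loader of the centromeric histone, was lowest at -1.95 but lay between -0.78 and -0.15 in the later libraries. In the list of the anaphase-promoting complex, also added then, AMA1, its meiotic activator, stood at 2.51 and ACM1, an inhibitor of it, at 2.06, and 6 of 17 were at 1 or more (35.3%).

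Genes for taking up and using poor nitrogen sources held several of the highest values of the library. MEP2, the high-affinity ammonium permease, was highest of all, at 6.92. In the later libraries, in order of time, it stood at 5.56, 4.68, 3.11, 2.22, 1.60 and 2.12. Its value was thus highest at 1 h and lower in every later library. The related permeases MEP1 and MEP3 stood at 0.94 and 1.07.

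Among the GATA factors of nitrogen control, the activator GAT1 stood at 2.80 and the repressor DAL80 at 3.71. The activator GLN3 stood at -0.31 and the repressor GZF3 at 0.65. GAT1 was at 0.67 by 2 h, while DAL80 stayed between 2.88 and 3.93 in the later libraries. Of the 10 genes in the list of ammonium permeases and GATA factors, 5 were at 1 or more (50.0%) and none at -1 or less.

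The genes for allantoin use lie next to each other on 1 chromosome, from YIR027C to YIR032C by systematic number, and were unequal. In that order DAL1 stood at 0.58, DAL4, the allantoin permease, at 3.78, DAL2 at 1.37, DCG1 at 2.38, DAL7 at 1.30 and DAL3, ureidoglycolate lyase, at 4.68. DAL5, a permease of allantoate located elsewhere, stood at 4.89. Of 17 measured genes of allantoin, urea, proline and GABA use, 9 were at 1 or more (52.9%) and none at -1 or less. The proline enzymes PUT1 and PUT2 stood at 0.39 and -0.37, the glutamate dehydrogenase GDH2 at -0.43 and the urea permease DUR3 at -0.12, and CAR2, which breaks down ornithine, at 2.25.

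Amino acid permeases were split. GAP1, the general amino acid permease made on poor nitrogen, stood at 4.89, and DIP5, for acidic amino acids, at 2.07. BAP3 and TAT1, permeases of branched-chain and aromatic amino acids, stood at -2.71 and -2.09, and GNP1, for glutamine, at -2.68. In all 6 of 22 were at 1 or more (27.3%) and 5 at -1 or less (22.7%), and the list median was 0.39. Members of the lower group also included MUP1, the high-affinity methionine permease, at -1.91 and TAT2, for tryptophan, at -1.42.

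Genes of amino acid synthesis were high at 1 h. In the list of glutamate, glutamine and arginine synthesis 10 of 14 were at 1 or more (71.4%) and none at -1 or less, with a list median of 2.11, against 0.86 at 2 h. ARG4, argininosuccinate lyase, stood at 3.93, and GLT1, glutamate synthase, at 3.18. ARG7 stood at 3.12, ARG1 at 2.27, ARG8 at 2.15 and ARG56, the gene also written ARG5,6, at 2.15. GLN1, glutamine synthetase, stood at -0.35 and ARG2, the first enzyme of ornithine synthesis, at 0.24.

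Other amino acid pathways were lower but tilted the same way. Of 50 measured genes of histidine, branched-chain, lysine, aromatic and related synthesis, 20 were at 1 or more (40.0%) and 2 at -1 or less (4.00%). LYS1, the last enzyme of lysine synthesis, stood at 3.24, TRP3 at 2.17 and ARO8 at 2.09. The low members were ARO10, a decarboxylase that breaks aromatic amino acids down, at -1.80, and TRP1 at -1.09. GCN4, the activator of these pathways, which is known to be controlled in translation, stood at 0.06. ASN1 and ASN2, the asparagine synthetases, are in no list and stood at 2.46 and 1.36.

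Sulfur assimilation joined them. Of 24 measured genes 13 were at 1 or more (54.2%) and none at -1 or less. MET17, which makes homocysteine from sulfide, stood at 2.94, the sulfate permeases SUL1 and SUL2 at 2.94 and 1.10, and the methionine synthase MET6 at 2.27. MET3, ATP sulfurylase, the first enzyme of the same route, stood at -0.14, and CYS4 and CYS3, which make cysteine from homocysteine, at -0.91 and -0.54.

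These pathways account for many of the genes that stood higher at 1 h than in every later library. Of 5349 open reading frames with a value in all 7 libraries, 75 (1.40%) stood at least 1 log2 unit above each of the 6 later libraries. The 0 h level was no part of this count, and some of the 75, such as FBP1 at -2.31, were below 0 h at 1 h. Of the 85 members of the 3 amino acid synthesis lists with a value throughout, 25 were among them. ARG8 stood at 2.15, then at -0.16 at 2 h and between -1.58 and -0.27 later, and MET17 went from 2.94 to 0.70 and then to -1.63 at 4 h. HIS4 went from 1.43 to -0.50 at 2 h and -1.97 at 3 h. A difference between 2 libraries does not contain the 0 h measurement, but the 1 h side of it is 1 array for every gene.

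Genes of phosphate use were also often above 0 h at 1 h. PHO89, a phosphate transporter, stood at 3.03, PHM8, a phosphatase that acts on nucleotides and lysophosphatidic acid, at 2.17, and PHO84, the main high-affinity transporter, at 1.91. Of 24 members 10 were at 1 or more (41.7%) and none at -1 or less, and of 23 with a value throughout 6 stood at least 1 above each later library. The secreted acid phosphatase PHO5 stood at 1.75, then -0.66 at 2 h, and PHO11, a near copy of PHO12, at 1.15 and then -0.59. The sodium pumps ENA1, ENA2 and ENA5, neighbouring near-identical genes whose signals may not be separate, stood at 3.03, 2.33 and 2.95. NCE103, carbonic anhydrase, was the third highest gene of the library at 5.27, with 5.06 at 2 h and 1.13 in the last library.

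The vitamin genes divided within a single family. SNZ1 and SNO1, which make pyridoxal phosphate, stood at 4.15 and 4.33. SNZ2 and SNZ3, their relatives that are known to be expressed with thiamine genes, stood at -1.84 and -2.03, and SNO2 at -0.71. THI11, THI12 and THI13, near-identical thiamine genes whose signals may not be separate, lay between -1.18 and -1.03. In NAD synthesis BNA6 and BNA3 stood at 2.24 and 1.95, while BNA2, the first enzyme of that route, stood at -1.95 and the nicotinic acid transporter TNA1 at -2.09.

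Genes for breaking protein down were high as well. Among vacuolar proteases and their inhibitors 7 of 10 were at 1 or more (70.0%) and none at -1 or less. PEP4, proteinase A, stood at 2.14, the carboxypeptidase CPS1 at 2.07 and PRB1, proteinase B, at 1.63, while PAI3 and PBI2, inhibitors of proteinases A and B, stood at -0.68 and 0.21. ATG8, the protein that coats the autophagosome membrane, stood at 2.60 and led 9 of 27 autophagy genes at 1 or more (33.3%), with none at -1 or less. ATG13, a regulatory subunit of the kinase that starts autophagy, stood at 1.42, and the lowest member was ATG10 at -0.62.

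In the proteasome list, which also holds the activator RPN4 and polyubiquitin, 12 of 34 were at 1 or more (35.3%) and none at -1 or less, and 32 of 34 were above 0. RPT1, a base ATPase, stood at 1.90, polyubiquitin UBI4 at 1.87 and RPN7 at 1.80. PRE1, a core subunit, was lowest at -0.69.

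Genes of the ribosome were the largest group below 0 h. Of 131 measured cytosolic ribosomal protein genes 125 stood at -1 or less (95.4%, against 12.1% of all open reading frames), 75 were at least 4-fold lower, and 1 was at 1 or more. The list median was -2.08, against -2.68 at 2 h. RPL26A stood at -4.27 (19.3-fold lower), RPS11A at -3.47 and RPL30 at -3.18. RPL26A was lower at 1 h than in any later library, where it lay between -2.57 and -1.75, and its copy RPL26B stood at -2.49 at 1 h.

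Most ribosomal proteins are made from a pair of near-identical genes, whose signals on an array may not be separate. Of 52 pairs with both values 34 differed by less than 0.5, and the median difference was 0.37. The exceptions past 1 were RPL26A with RPL26B, by 1.79, and RPL43A with RPL43B, which stood at -1.91 and 1.06. RPL43B (YJR094W-A) lies beside IME1 (YJR094C) by systematic number. In the later libraries, in order of time, RPL43B stood at 1.03, 1.66, 1.76, 1.00, 0.30 and -0.93. IME1 stood at 1.29, 1.30, 1.45, 0.99, 0.06 and -1.29. Whether RPL43B and IME1 share signal was not tested. The other ribosomal protein genes above -1 were RPS28A at -0.73, RPP2A at -0.77, RPS9B at -0.79, RPL38 at -0.80 and RPL32 at -0.92.

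Genes that assemble ribosomes were lower to a smaller degree. In the small subunit processome 18 of 34 were at -1 or less (52.9%) with a median of -1.19, and in 60S biogenesis 24 of 48 (50.0%) with a median of -0.998; neither list had a member at 1 or more. UTP13 stood at -3.14, NMD3, which exports the large subunit, at -3.25, and RLP24 at -2.62. Each was nearer to 0 h in every later library that held a value for it. UTP13 lay between -2.22 and -1.49 there, NMD3 between -2.45 and -1.80 and RLP24 between -2.07 and -0.89. UTP23 at 0.28 and REA1, a very large ATPase of assembly, at 0.82 were highest. Of 30 genes of RNA polymerases I and III 6 were at -1 or less (20.0%), RPA135 at -1.75 and RPA34 at -1.71 among them, and MAF1, the repressor of polymerase III, was highest at 0.91.

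Translation factors and tRNA synthetases were closer to 0 h. Of 38 initiation, elongation and termination factors 9 were at -1 or less (23.7%), with a list median of -0.69. SUP35, a release factor, was lowest at -1.60 but lay between -0.24 and 0.27 in the later libraries. HEF3, the little-used copy of elongation factor 3, was the exception at 1.37, against -0.89 for its main copy YEF3. Of 20 cytosolic aminoacyl-tRNA synthetases 1 was past -1, SES1 for serine, at -2.27, and their median was -0.07.

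The mitochondrial counterparts were low too. Of 64 mitochondrial ribosomal proteins 38 were at -1 or less (59.4%) and none at 1 or more, with a median of -1.09. RSM23 was lowest at -2.87 but lay between -1.22 and 0.23 in the later libraries. In a list added after values were seen, 4 of 13 mitochondrial tRNA synthetases were at -1 or less (30.8%). Of these MSW1, for tryptophan, stood at -3.64 and MSD1, for aspartate, at -2.96. Both were nearer to 0 h in every later library, between -1.16 and -0.33 for MSW1 and between -1.73 and -1.16 for MSD1. MAM33, a protein of the mitochondrial matrix, stood at -2.83. In the added list of mitochondrial protein import 12 of 29 were at -1 or less (41.4%), with MGR2 at -2.65 and TIM44 at -2.34. MGR2 stood at -0.58 at 2 h and at -2.70 in the last library.

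Glycolysis and fermentation stood as low as the ribosome. Of 23 measured genes 17 were at -1 or less (73.9%), 13 were at least 4-fold lower and none was at 1 or more, with a median of -2.05. ENO1, an enolase, was the lowest gene of the library, at -4.43. It was lower still afterwards, at -4.91, -5.90, -6.24, -6.16, -5.75 and -6.59 in order of time. PGK1, phosphoglycerate kinase, stood at -3.57 and CDC19, the main pyruvate kinase, at -2.92.

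The isoenzymes were not alike. PYK2, the second pyruvate kinase, stood at -0.35, which is 2.57 above CDC19, and GLK1, glucokinase, stood at -0.12 beside the hexokinases HXK1 and HXK2 at -2.59 and -2.76. PFK1 and PFK2, the subunits of phosphofructokinase, stood at -0.59 and -0.52. The regulators GCR1 and GCR2 stood at -0.03 and 0.18. In the pentose phosphate pathway, a list added after values were seen, 3 of 12 were at -1 or less (25.0%, beside 12.1% of all). RKI1 was lowest at -1.97.

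Hexose transporters ranged from HXT14 at 2.92 to HXT6 at -2.56. HXT3, for high sugar, stood at -2.09, HXT4 at -1.90 and HXT7, nearly identical to HXT6, at -1.80, while HXT10 and HXT2 stood at 1.31 and 1.20. In all 5 of 19 were at 1 or more (26.3%, beside 12.0% of all open reading frames) and 4 at -1 or less (21.1%, beside 12.1%). HXT14 reached 8.48 in the last library.

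Genes for growth on acetate were divided. ADY2, the acetate transporter, stood at 3.36, SIP4, an activator of gluconeogenic genes, at 1.65, and ACS1, acetyl-CoA synthetase, at 1.57. FBP1, fructose-1,6-bisphosphatase, stood at -2.31, ADR1, an activator of genes for non-fermentable carbon, at -1.61 and PCK1, phosphoenolpyruvate carboxykinase, at -1.55. Of 21 members 5 were at 1 or more (23.8%) and 6 at -1 or less (28.6%).

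Of the tricarboxylic acid cycle, CIT3, a minor form of citrate synthase, stood at 1.58 and IDH2, a subunit of isocitrate dehydrogenase, at 1.15. SDH4, KGD1 and SDH1 stood at -1.70, -1.32 and -1.22. At 1 or more were 3 of 19 (15.8%, near the 12.0% of all open reading frames), and at -1 or less 4 (21.1%, beside 12.1%). The respiratory chain and ATP synthase leaned down, with 17 of 35 at -1 or less (48.6%) and a median of -0.99. ATP16 and ATP5, subunits of the ATP synthase, stood at -2.67 and -1.98. The 3 highest members were NDE2 at 1.30, COX5B at 0.84 and CYC7 at 0.70, and their main counterparts NDE1, COX5A and CYC1 stood at -0.41, -1.08 and -1.27. COX5B and CYC7 are known as the forms made when oxygen is scarce, but neither reached 1, and a response to oxygen was not tested.

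Fatty acid oxidation leaned up. The carnitine acetyltransferase CAT2 stood at 2.00, FOX2 at 1.87 and the peroxisomal catalase CTA1 at 1.50, and 8 of 24 were at 1 or more (33.3%) with none at -1 or less. In trehalose and glycogen metabolism 4 of 18 were at 1 or more (22.2%, beside 12.0% of all) and none at -1 or less. The trehalase NTH2 at 1.53 and the phosphoglucomutase PGM2 at 1.38 were among the 4. GUT1, glycerol kinase, and AGX1, which makes glycine from glyoxylate, stood at -2.80 and -2.79.

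DNA replication genes had a median of 0.46, beside 0.09 over all open reading frames. At 1 or more were 7 of 44 (15.9%), a share near the 12.0% of all, and 1, ORC2, stood at -1.31. In the later libraries ORC2 lay between -0.67 and -0.01. RFA2, of the single-strand binding complex, stood at 1.61, SLD2, which helps start replication, at 1.25 and DBF4, the activator of the kinase Cdc7, at 1.24, while POL1, of DNA polymerase alpha, stood at 0.72. In the list of dNTP supply and the checkpoint 4 of 22 were at 1 or more (18.2%, beside 12.0% of all). DCD1 alone was at -1 or less, at -1.22. SML1, the inhibitor of ribonucleotide reductase, stood at 1.91 and the checkpoint kinase RAD53 at 1.26. RNR1, the large subunit of the reductase, stood at -0.05 and RNR4 at -0.72.

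Histone genes were uneven. HTB1, for H2B, stood at 2.01 and HTB2 at 1.48, while HTA1, for H2A, stood at 0.24, HTA2 at -0.32 and HHT1, for H3, at -0.36. Of 11 genes 3 were at 1 or more (27.3%), and the list median was 0.75, against 1.68 at 2 h. HTA1 stood at 1.91 by 2 h. Core histone genes come as near-identical copies, so their signals may not be separate.

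Among the cyclins, CLN2, of G1, was lowest at -2.65, with no value at 2 h and between -1.90 and -1.34 after that, while its relative CLN1 stood at 0.10. CLB4 and CLB1, of M phase, stood at 1.26 and 1.07, and NDD1, an activator of M-phase genes, at 1.25. In the list 6 of 28 were at 1 or more (21.4%, beside 12.0% of all) and CLN2 alone was at -1 or less.

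Of 28 measured oxidative and general stress genes 4 were at 1 or more (14.3%, near the 12.0% of all open reading frames) and 8 at -1 or less (28.6%, beside 12.1% of all). CTT1, the cytosolic catalase, stood at -2.24 and SIP18 at -1.71, and DDR2 and YAP1, the latter an activator of oxidative stress genes, at 1.72 and 1.29. Of 28 chaperone genes 4 were at 1 or more (14.3%, again near the share of all) and 6 at -1 or less (21.4%), with HSP82 at 1.49 and HSP26 at -1.34. SSB1 and SSB2, near-identical genes of a ribosome-bound Hsp70, stood at 1.57 and -1.80. At 2 h they stood at -0.13 and -2.32, so SSB1 was above 0 h at 1 h and below it in each later library. YDL228C, next to SSB1 (YDL229W) by systematic number, stood the other way at 1 h, at -1.84. Which of these readings holds for SSB1 was not tested.

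Nucleotide synthesis was low, with 12 of 32 at -1 or less (37.5%), none at 1 or more and a median of -0.55. PRS4, which makes the ribose precursor, stood at -2.16, and IMD4 and IMD2, of GMP synthesis, at -1.91 and -1.81. In lipid synthesis 4 of 23 genes were at 1 or more and 4 at -1 or less. Both shares, 17.4%, are near the 12.0% and 12.1% of all open reading frames. INO1 stood at 1.57 and the fatty acid desaturase OLE1 at -1.77, with OLE1 at -0.03 at 2 h and -3.29 in the last library. Ergosterol synthesis lay near the background, with 3 of 25 at 1 or more (12.0%, as over all) and 2 at -1 or less (8.00%, beside 12.1%). ERG28 was lowest at -2.72, with -1.02 at 2 h and -2.10 in the last library.

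In metal uptake, FET3 and FTR1, the ferroxidase and the permease of high-affinity iron uptake, stood at -2.85 and -1.34, and TIS11, which degrades mRNAs when iron is short, at -1.99. ISU2 and ISU1, the scaffolds on which iron-sulfur clusters are built, stood at 2.41 and 2.09. The list had 4 of 34 at 1 or more (11.8%, near the 12.0% of all open reading frames). At -1 or less were 6 (17.6%, beside 12.1% of all).

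The cell wall list lay near the background, with 3 of 38 at 1 or more (7.89%) and 4 at -1 or less (10.5%). Septins lay between SHS1 at -1.30 and CDC3 at 1.41. Among 26 genes of actin, tubulin and motors 4 were at 1 or more (15.4%, near the 12.0% of all open reading frames). The highest was CIK1, a partner of the kinesin Kar3, at 1.61. Of 26 measured pheromone response and haploid-specific genes, 5 were at 1 or more (19.2%, beside 12.0% of all open reading frames). The list median was -0.04, with 13 members above 0 and 13 below. FUS2 stood at 1.87 and the G protein subunits STE18 and STE4 at 1.75 and 1.48. The lowest were STE50 at -1.07, STE6 at -0.62 and STE7 at -0.61. No value at 1 h was given for 6 members of that list.

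Related genes were set side by side in 44 pairs with both values at 1 h. Of these, 27 differed by less than 1 log2 unit, 17 by 1 or more and 8 by 2 or more. Of the 44, only MDH1 and MDH2, the mitochondrial and cytosolic malate dehydrogenases, were past 2-fold in opposite directions, at -1.04 and 1.24; ribosomal protein copies and SSB1 with SSB2 were not among the 44. The largest differences were those of MEP2 and MEP3, by 5.85, and of REC8 and MCD1. BAT1, the mitochondrial branched-chain aminotransferase, stood at 1.98 and the cytosolic BAT2 at -0.45, and the aromatic aminotransferases ARO8 and ARO9 at 2.09 and -0.66. TDH2 and TDH3 differed by 0.03, and SSA2 and SSA3 by 0.02. Where copies are near-identical in sequence, shared signal on the array and a shared level cannot be told apart.

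**Figure D3:**
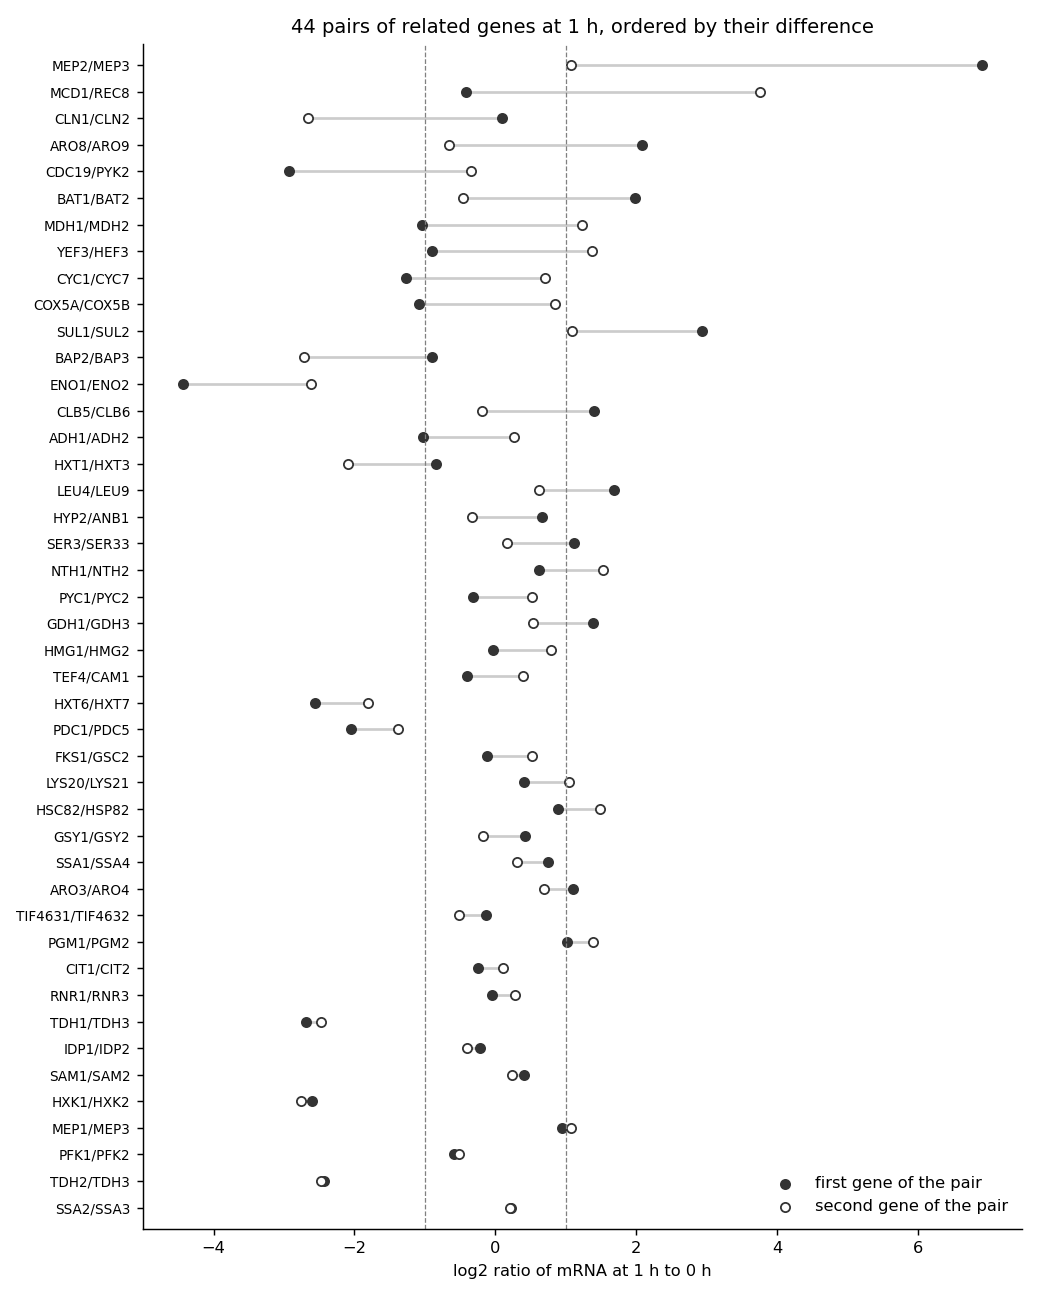
Each row is a pair of related genes, with the first named gene as a filled and the second as an open circle at their log2 ratio at 1 h to 0 h, ordered by the size of the difference. The top 8 rows differ by 2 or more, with MEP2 at 6.92 and MEP3 at 1.07 furthest apart. In the bottom row SSA2 and SSA3 nearly coincide, as do TDH2 and TDH3 in the row above.

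Some genes stood lower at 1 h than in every later library. A gap of at least 1 log2 unit to each of them was found for 68 of the 5349 open reading frames with a value throughout (1.27%). PSY3, of a complex that acts in recombination repair, stood at -1.07 at 1 h and between 1.48 and 2.07 after that. LOT6, a quinone reductase, stood at -2.39 at 1 h and between -0.23 and 0.28 in the later libraries. RRT13 stood at -2.80 at 1 h and between -1.16 and 0.21 later. Of the 68, 22 were past 2-fold at 1 h and within 2-fold in every later library. For these genes the call at 1 h rests on a single reading that no other library repeats.

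**Figure D4:**
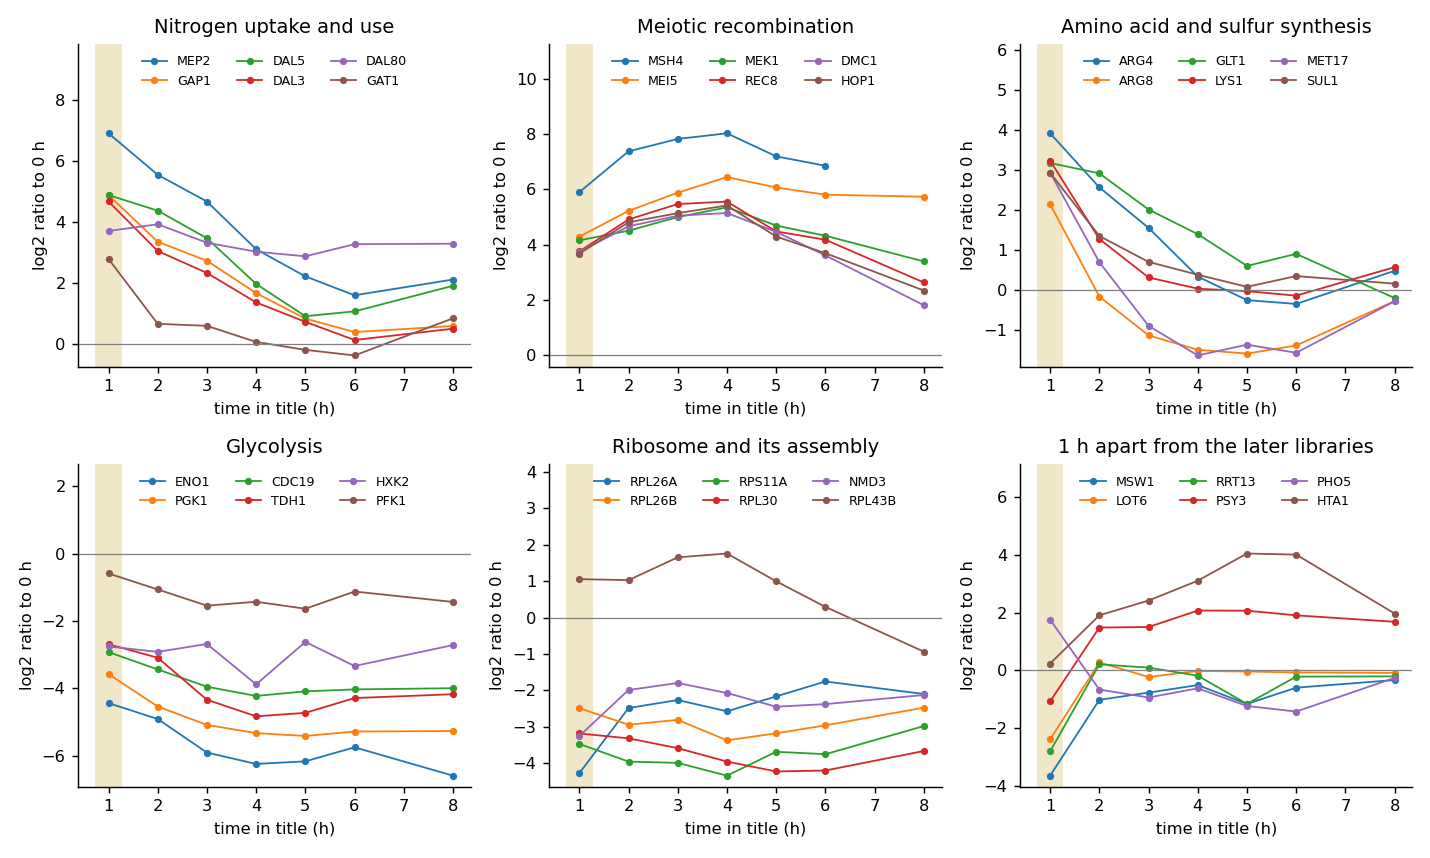
Each panel plots log2 ratios to 0 h against the time in the library's title (h) for 6 genes, 1 array per point, with 1 h shaded. Genes of nitrogen use other than DAL80, and those of amino acid and sulfur synthesis, start at their highest value at 1 h, recombination genes are higher at 4 h than at 1 h, and MSW1, LOT6 and RRT13 stand lower at 1 h than at any later point.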

How the data were processed

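Messenger RNA of 7 time points of 1 mutant course was measured on 2-channel arrays, the sample in Cy5 and a meiotic mRNA mix in Cy3, per the labels. The authors deposited log2 ratios to 0 h, made from each sample's ratio to the mix, per the series' design text. Scanner, background correction and any normalization are not stated in what was used here, and spot intensities were not used, so signal over background is unknown.

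Values were used as deposited. Of 6141 rows, 5655 matched a locus tag of the RefSeq gene table (assembly R64) and 12 an older name, and 5142 had a symbol. With 1 library at 1 h, open reading frames at log2 1 or more and -1 or less were counted, with no test. Lists were described by counts and medians, beside the same over all rows. Alternatives were centring, scaling to a shared spread, quantile normalization, a 3-fold threshold, rows with a locus tag, rows with all 7 values, and the mean of 1 h and 2 h. Counting was tested on simulated data. Python 3.11.15, numpy 2.4.6, pandas 2.3.3 and matplotlib 3.10.9 were used.

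The members, lists, pairs and the rule for names were chosen with earlier results of these data known. The rule took CLB5 and CLB6, the 25 highest and 25 lowest genes with a symbol, the 3 highest and 3 lowest of each list, pairs that differ by 2 or more, genes at the thresholds and a set of key genes. SAE3, HOP2, RED1, REC114, REC102, REC104, REC107, ZIP2, GMC2, RIM101, SPS1, SMK1, DIT1, MEP1, DAL1, DAL2, DCG1, DAL7, PUT1, CAR2, MUP1, TAT2, ARG7, ARG1, ARG8, ARG56, ASN1, ASN2, SUL2, MET3, HIS4, PHO5, PHO11, PHO12, ENA1, ENA2, ENA5, SNZ2, SNO2, THI11, THI12, THI13, BNA3, RPN4, RPL26B, RPL43A, RPS9B, RPL38, RPL32, HXK1, HXK2, PFK1, PFK2, HXT7, NDE1, COX5A, CYC1, CLB1, FTR1, TDH2, TDH3, SSA2, SSA3, PSY3, LOT6, YKR033C, YLL047W, YGR226C, YCR013C, YKL153W, GPM1, YLR339C, RPP0, SRT1, ULP2 and YIR042C fall outside it: their values were known when they were picked, as with 5 lists. The same holds for YDL228C. The wrongly listed members RPP1, YPS1 and VTH1 were removed from lists after values were seen, and older symbols of some members were replaced by current ones. A few genes are not reported here by name, though counts and medians of lists include them; pairs that held them were left out.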

Additional observations from a re-analysis of the deposited data

How the results depend on the processing

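The count of genes at least 2-fold higher at 1 h, 682, lay between 558 and 983 under the alternatives that kept the 2-fold threshold, and the count lower, 693, between 631 and 1054. The count lower was 1054 with libraries brought to the same median absolute deviation, where the count higher was 858. At a 3-fold threshold 230 were higher and 314 lower, fewer by construction. Centring the library on its median, a shift of 0.09, gave 558 higher and 775 lower, and quantile normalization 983 and 903. Of 294 list medians recomputed under an alternative, 275 kept their sign, and the 19 that turned belong to 8 lists whose medians were 0.22 or less in size: the tricarboxylic acid cycle, chaperones, pheromone response, ergosterol synthesis, metal uptake, vitamins, cell wall and septins. Sizes shifted more: 10 list medians moved by 0.5 or more, as did 320 of 1320 values of genes named by the rule. Under quantile normalization the median of recombination and synapsis went from 2.28 to 3.62, that of glutamate, glutamine and arginine synthesis from 2.11 to 3.26, of allantoin and related use from 1.30 to 1.83 and of vacuolar proteases from 1.32 to 1.88. With the mean of 1 h and 2 h, glutamate, glutamine and arginine synthesis stood at 1.26, allantoin and related use at 0.71 and sulfate assimilation at 0.60 (1.10 at 1 h). With a shared median absolute deviation, recombination stood at 2.82, glycolysis at -2.76 and cytosolic ribosomal proteins at -2.80. No gene named by the rule and past 2-fold changed its sign under centring, scaling, quantile normalization or the mean of 1 h and 2 h. Genes picked outside the rule were not part of that check. PSY3, which is among those, stood at -1.07 at 1 h and at 1.48 at 2 h, so its mean is above 0. Promoter motif shares were not run, since no promoter sequences were used here. No paired analysis was possible because each time point is 1 library. Leaving out a replicate was not possible at 1 h. Without intensities, dim spots cannot be told from bright ones.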

Other observations

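Some of the highest and lowest open reading frames had no match by locus tag or older name in the gene table, and several lie beside a gene of like value by systematic number. YKR033C stood at 5.01 and its neighbour DAL80 (YKR034W) at 3.71. YLL047W stood at 2.93 beside RNP1 (YLL046C) at 3.50, and YGR226C at 2.77 beside AMA1 (YGR225W) at 2.51. On the low side YCR013C stood at -3.28 beside PGK1 (YCR012W) at -3.57, YKL153W at -2.48 beside GPM1 (YKL152C) at -2.58, and YLR339C at -2.36 beside RPP0 (YLR340W) at -2.02. Of 92 such open reading frames past 2-fold with a measured neighbour in the gene table, 51 (55.4%) had a neighbour past 2-fold in the same direction. Counted the same way, and with a median of 2 neighbours in both sets, this held for 311 of 1249 open reading frames with a locus tag that were past 2-fold (24.9%). Whether such a pair shares signal was not tested. Of the 422 rows without a locus tag that had a value at 1 h, 41 were at 1 or more (9.72%) and 55 at -1 or less (13.0%), against 12.1% each of the 5284 rows with one.

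Among genes in no list, SRT1, an enzyme of dolichol synthesis, stood at 3.33 and the SUMO protease ULP2 at 2.83 at 1 h. YIR042C, near the allantoin genes on the same chromosome, stood at 4.04 at 1 h, 2.12 at 2 h and -0.06 at 4 h.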
